A study of Homo sapiens with 32 samples.

Results

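The SLITRK genes and the non-clustered protocadherin (PCDH) genes encode cell-surface proteins of neurons, and 10 of them were described here as stretches of chromosome, SLITRK1, SLITRK3, SLITRK5, SLITRK6, PCDH7, PCDH8, PCDH9, PCDH10, PCDH17 and PCDH18. These 10 genes of the 20033 protein-coding genes of GENCODE release 44 were chosen from measured values, with the difference between drug-treated and non-treated cells known, so that difference is given as a description and was not tested. U-DNA-Seq pulls down fragmented genomic DNA with a FLAG-tagged uracil-DNA glycosylase that binds uracil and has no catalytic activity, and sequences it beside the input DNA. A region is a stretch where the log2 ratio of pulled-down to input coverage passed a threshold set for that library, and 15 of the 32 samples, 1 enriched library each, have a list of such regions.

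HCT116 is a human colon carcinoma line without functional mismatch repair (MMR). The 6 non-treated libraries came from HCT116 cells as they are (WT, n = 2), from cells that stably express UGI, an inhibitor of uracil-DNA glycosylase, together with EGFP after retroviral transduction and sorting (NT_UGI, n = 2), and from UGI-expressing cells of a sub-line in which an added chromosome 3 restores MMR (NT_UGI_MMR, n = 2). The 8 drug-treated libraries all came from UGI-expressing cells treated for 48 h with the nucleoside analogue 5FdUR (5-fluoro-2′-deoxyuridine, 20 µM) or with the antifolate raltitrexed (RTX, at 100 nM), both inhibitors of thymidylate synthesis, in MMR deficient cells (5FdUR_UGI and RTX_UGI, n = 2 each) and in MMR proficient cells (5FdUR_UGI_MMR and RTX_UGI_MMR, n = 2 each). By the paper's account the glycosylase also binds fluorouracil, which 5FdUR can place in DNA directly, so shares after 5FdUR may include it. K562, a human leukaemia line without UGI or drug, gave 1 library and so no replicate error. The drug-treated cells therefore differ from the WT cells in UGI as well as in drug, and the MMR proficient cells differ from the deficient ones in a whole added chromosome, which also carries SLITRK3. In the sample numbering, the MMR proficient libraries form a block apart from the MMR deficient ones. The paper names 2 sequencing platforms, and the labels used here do not give the platform of each library. Whether platform or batch runs with MMR status is therefore not known here.

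SLITRK proteins are single-pass membrane proteins with leucine-rich repeats outside the cell, which bind receptor tyrosine phosphatases of the LAR family across the synaptic cleft and help to organise excitatory or inhibitory synapses. Non-clustered protocadherins are cadherin-related adhesion molecules, encoded by genes that stand apart from the large protocadherin clusters, and they act in axon growth, cell sorting and synapse formation. Many genes of both families lie in wide, gene-poor stretches of AT-rich DNA. Uracil enters DNA in place of thymine when dUTP is used in synthesis, and by deamination of cytosine, and uracil-DNA glycosylase removes it.

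Each gene was measured over a window of the gene body and 100 kb on each side, and the covered share is the percent of the known bases of that window that lay inside regions of a library. A share of 0 means that no stretch of the window passed the threshold of that library, not that uracil was absent. The lowest log2 value was between 0.25 and 0.33 in the non-treated HCT116 lists, between 0.13 and 0.25 after 5FdUR and between 0.25 and 0.27 after RTX, so the lists were not cut at the same height. Over the whole genome the lists covered 10.9 to 11.3% of the known bases without drug and 17.1 to 18.9% with drug. Region lists hold no sequencing depth, so errors here are those between replicate libraries.

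Of the 10 genes, 6 lie on chromosome 13, 3 on chromosome 4 and 1 on chromosome 3 (GRCh38). In no window was there another protein-coding gene, and the distance to the nearest one ran from 103.1 kb for PCDH8 to 3695 kb for PCDH7. The windows were AT-rich. The 9 windows other than that of PCDH8 had a GC content between 34.1 and 36.8%, below the 10th percentile of all protein-coding gene windows (38.2%), while the window of PCDH8 had 44.6%, close to the median of 44.2%.

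The sequence at the start of these genes differs from the sequence around it. A few stretches are shown because most start sites examined had no region in the non-treated libraries. Whether the regions follow the sequence was not tested. The 300 bases around the start site of SLITRK6 and of SLITRK5 stand at the ends of a range among these genes, with 4 and 36 CpG dinucleotides, and those of PCDH8 and PCDH7, with 20 and 16, belong to the genes whose windows behaved differently after drug. Sequences of start sites are those of RefSeq (GRCh38.p14), printed 5′ to 3′ along the gene with each CpG (the letters CG) in capitals.
SLITRK6 promoter, chr13:85799370-85799669, minus strand: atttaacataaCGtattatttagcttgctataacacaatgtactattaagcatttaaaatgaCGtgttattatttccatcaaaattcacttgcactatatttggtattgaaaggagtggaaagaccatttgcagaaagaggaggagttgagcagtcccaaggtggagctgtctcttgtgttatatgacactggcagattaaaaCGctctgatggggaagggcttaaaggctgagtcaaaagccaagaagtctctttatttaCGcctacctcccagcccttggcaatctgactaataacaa
SLITRK5 promoter, chr13:87672339-87672638, plus strand: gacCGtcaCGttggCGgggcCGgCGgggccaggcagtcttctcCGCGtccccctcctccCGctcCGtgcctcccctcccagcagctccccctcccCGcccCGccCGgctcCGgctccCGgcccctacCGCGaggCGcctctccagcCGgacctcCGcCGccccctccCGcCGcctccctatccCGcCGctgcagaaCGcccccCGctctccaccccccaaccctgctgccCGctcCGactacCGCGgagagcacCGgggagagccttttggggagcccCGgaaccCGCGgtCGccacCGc
PCDH8 promoter, chr13:52848591-52848890, minus strand: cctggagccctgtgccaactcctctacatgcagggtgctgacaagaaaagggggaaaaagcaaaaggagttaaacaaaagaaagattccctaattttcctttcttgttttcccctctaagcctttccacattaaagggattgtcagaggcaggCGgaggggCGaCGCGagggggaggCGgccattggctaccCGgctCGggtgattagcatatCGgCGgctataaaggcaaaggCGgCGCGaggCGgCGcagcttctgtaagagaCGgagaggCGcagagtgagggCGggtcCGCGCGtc
PCDH7 promoter, chr4:30720119-30720418, plus strand: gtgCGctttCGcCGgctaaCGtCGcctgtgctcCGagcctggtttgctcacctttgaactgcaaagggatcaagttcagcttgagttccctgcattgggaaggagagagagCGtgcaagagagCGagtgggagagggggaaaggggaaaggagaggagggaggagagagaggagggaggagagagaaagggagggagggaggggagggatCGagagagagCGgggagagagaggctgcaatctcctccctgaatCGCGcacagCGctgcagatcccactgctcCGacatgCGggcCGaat

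Without drug, 9 of the 10 windows were heavily covered. The exception was PCDH8, with a share of 0 in 4 of 6 non-treated libraries. In 8 genes, SLITRK1, SLITRK3, SLITRK5, SLITRK6, PCDH9, PCDH10, PCDH17 and PCDH18, the covered share was lower in every drug-treated library than in every non-treated library, and no member was higher in every drug-treated library. The same separation was found in 5.85% of all 20033 protein-coding gene windows for lower shares and in 36.9% for higher shares, and nothing is read from the members' count because the members were chosen from this contrast. The median difference over the 10 members was -42.3 percentage points, against 30.4 over all protein-coding gene windows.

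SLITRK5, whose loss in mice gives compulsive grooming, had the highest mean share without drug. It lies on the plus strand of chromosome 13 from 87671371 to 87696272. Its covered share was 60.8 and 55.5% in WT, 65.1 and 51.2% in NT_UGI and 63.5 and 51.1% in NT_UGI_MMR, and 37.3% in K562. After drug it was 0 and 6.71% in 5FdUR_UGI, 0.22 and 6.31% in 5FdUR_UGI_MMR and 0 in all 4 RTX libraries. The non-treated mean was 57.9% ± 6.15 (SD, n = 6) and the drug-treated mean 1.66% ± 3.0 (SD, n = 8), and the classes were far apart, with K562 below every non-treated HCT116 library.

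SLITRK6, which is needed for the innervation of the inner ear, followed with shares between 50.03 and 62.1% without drug (median 58.0%). In the 5FdUR libraries its share was 0, 7.05, 1.73 and 6.26%, and after RTX it was 0 in 3 libraries and 0.37% in the other. SLITRK1, which is expressed in the developing cortex and striatum, had non-treated shares from 40.7 to 51.0% (median 46.1%) and a drug-treated maximum of 11.4%. SLITRK3, an organiser of inhibitory synapses, had shares from 34.5 to 54.6% (median 42.6%) without drug and at most 10.7% with drug. In none of these 4 SLITRK windows did the shares of non-treated and drug-treated libraries overlap, and the 2 replicates of NT_UGI differed most for SLITRK3, by 54.6 against 34.5%. In SLITRK1 and SLITRK3 the difference lay in the flanks. The gene bodies of both were covered by 0 in all 6 non-treated and all 4 RTX libraries. After 5FdUR the body of SLITRK3 was covered by 0 and 65.4% in MMR deficient and by 62.6 and 30.7% in MMR proficient cells, and that of SLITRK1 by 96.3% in 5FdUR_UGI replicate 2 and by 0 in the other 3 libraries, so that over the genes themselves the means were higher with drug.

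Among the protocadherins, PCDH10, which acts in the growth of striatal axons, was covered by 47.8 to 58.2% without drug (median 55.1%). Its share after 5FdUR was 1.39 and 9.22% in MMR deficient and 5.55 and 23.6% in MMR proficient cells, and it stayed at or below 1.12% after RTX. PCDH17, found in circuits of the cortex and basal ganglia, was covered by 47.9 to 55.8% without drug and by 0 in all 4 RTX libraries, with 0, 6.28, 0.10 and 3.06% in the 5FdUR libraries. PCDH9, the longest of the 10 genes with 928 kb, was covered by 32.5 to 45.9% without drug and by at most 15.6% with drug. PCDH18 had the lowest shares of these 8 genes, 19.8 to 31.98% without drug, and its highest share with drug was 11.5% in 5FdUR_UGI_MMR replicate 2.

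K562, which was grown without UGI and without drug, gave a share within the range of the 6 non-treated HCT116 libraries for 7 of the 10 genes. The exceptions were SLITRK5 (37.3%), SLITRK6 (43.6%) and PCDH17 (44.1%), each below that range. The log2 values of the listed regions in the windows differed too. Without drug the length-weighted mean log2 value of a member's regions was between 0.34 and 0.53 (median 0.45 over genes and libraries with a region), and with drug it was between 0.16 and 0.44 (median 0.26). Such means cannot lie below the threshold of a list, and the 5FdUR lists were cut at 0.13 to 0.25. Over all region bases of a library, the mean log2 value was 0.37 to 0.46 without drug and 0.22 to 0.46 with drug. The difference is therefore not read as a trait of these windows. In 35 of 80 pairs of a gene and a drug-treated library there was no region at all, against 4 of 60 pairs without drug, all 4 of them PCDH8. These pairs share libraries, the members were chosen from this contrast, and no share over all windows stands beside the counts. Nothing is read from them.

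The shares of the members followed the GC content of their windows. Over the 10 genes the Pearson correlation of GC content with the mean non-treated share was -0.92 and the Spearman correlation -0.94, a description over genes that share the same 6 libraries. Windows of other protein-coding genes within 0.5 percentage points of the same GC content had a median share without drug of 40.3% for SLITRK1 (143 windows), against 46.3% for the gene, and of 40.36% for PCDH9 (140 windows), against 40.38% for the gene. Over the 9 AT-rich members, the percent of such windows that were less covered than the gene without drug ran from 50% for PCDH9 to 97.6% for PCDH10 (84 windows). With drug the medians of these windows were 1.82% for SLITRK1 and 1.75% for PCDH9, against 2.36 and 3.68% for the genes. PCDH7 was covered more with drug than 94.0% of the 399 windows of its GC content. What part GC content has in the shares was not tested.

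PCDH8, the human counterpart of arcadlin, an activity-induced protocadherin of synapses, differed from the others. It covers only 5.75 kb on the minus strand of chromosome 13, from 52842889 to 52848641. Its window was covered by 0 in both WT libraries and in K562, by 0 and 0.24% in NT_UGI and by 0 and 1.75% in NT_UGI_MMR. After RTX the share was 0 in both MMR deficient libraries and 2.48 and 0.29% in the MMR proficient ones. After 5FdUR it was 1.22 and 22.5% in MMR deficient and 67.6 and 49.9% in MMR proficient cells, so that the window was covered mainly in the latter, and the 2 MMR deficient replicates differed widely. Protein-coding gene windows of its GC content (n = 1248) had a median of 0.78% without drug and 37.5% with drug.

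PCDH7, the largest of the chromosome 4 members, is a protocadherin of brain and heart that binds protein phosphatase 1. It runs from 30720369 to 31146805 on the plus strand. The covered share was 36.0 and 33.5% in WT, 31.5 and 23.6% in NT_UGI, 24.0 and 27.5% in NT_UGI_MMR and 31.9% in K562. After 5FdUR it was 4.23 and 4.80% in MMR deficient and 8.13 and 28.2% in MMR proficient cells. After RTX the window was covered by 54.6 and 51.7% in MMR deficient cells, above every non-treated library, and by 0.16 and 0% in MMR proficient cells.

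The comparisons between the drugs, between MMR deficient and proficient cells and between cells with and without UGI were tested with limma over 19960 protein-coding gene windows, on the arcsine of the square root of the covered share, with Benjamini-Hochberg adjustment over all of these windows and a call at 0.05. The labels and methods describe the 2 libraries of a condition as independent biological replicates. After RTX, PCDH7 was the only member whose share differed with MMR status, by -53.1 percentage points in MMR proficient cells (53.2% ± 2.03 against 0.080% ± 0.11, SD, n = 2 each; limma, adjusted p = 0.00072). A share lower in MMR proficient cells after RTX was called in 14.1% of all windows. Only 40 of the 20033 windows fell further, and none of the 399 windows within 0.5 percentage points of the GC content of PCDH7 did, their median difference being 0.0094 points. Such a fall needs at least as large a share in RTX_UGI, and these 399 windows had a median share of 3.13% with drug. Little is therefore read from the lack of further falls among them. The other 9 members were not called after RTX. Apart from PCDH8, these had at most 1.38% in any RTX library, so a fall could hardly be seen in them. SLITRK3, SLITRK6 and PCDH9 had a share above 0 in RTX_UGI_MMR replicate 1 alone among the RTX libraries.

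The RTX regions at PCDH7 formed a block of their own. Around the 5′ end of the gene, every 100 kb bin from 200 kb upstream to 500 kb downstream was covered at least 10 percentage points more in both RTX_UGI libraries than in either RTX_UGI_MMR library, and over these 700 kb the mean share was 58.4 and 53.5% against 0.14 and 0%. In the 38 other bins, up to 2 Mb upstream and 2.5 Mb downstream of the 5′ end of PCDH7, the mean share was 0.54 and 0.37% in RTX_UGI and 0.53 and 0% in RTX_UGI_MMR. The limits of the 700 kb were set from this same difference, so the gap within them follows from the rule. The longest region ran from 30591901 to 30719700 on chromosome 4 in RTX_UGI replicate 1 (127.8 kb, log2 0.51), and it ended just before the start of the gene. In replicate 2 regions from 30588201 to 30629600 and from 30637801 to 30725300 (log2 0.48 and 0.52) spanned nearly the same stretch. The longest region over any member in the non-treated libraries had 28.6 kb. With only regions of log2 0.33 or more kept, the window of PCDH7 was still covered by 47.2 and 43.0% in RTX_UGI and by 0 in both RTX_UGI_MMR libraries.

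**Figure D1:**
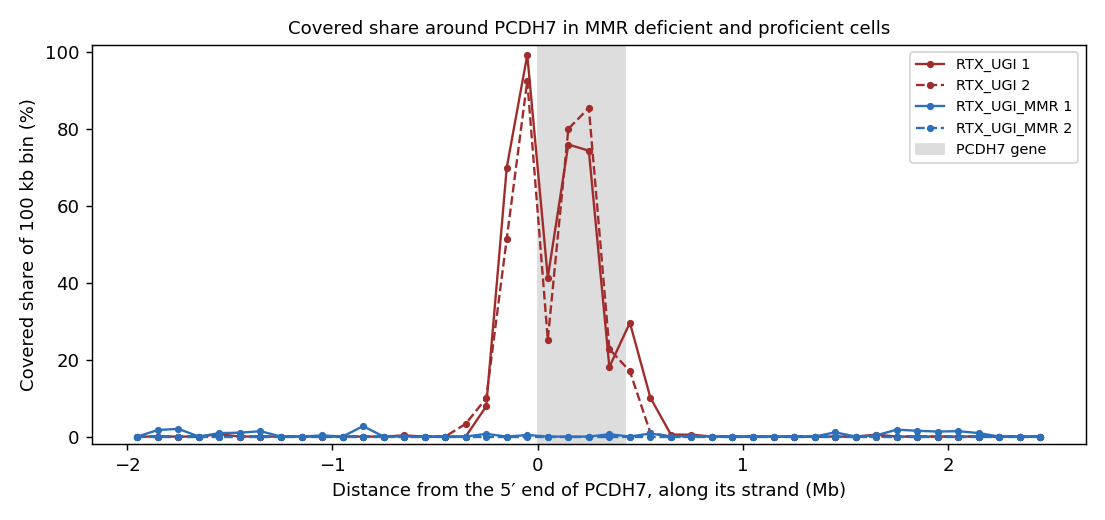
Covered share (%) of 100 kb bins by distance (Mb) from the 5′ end of PCDH7 along its strand in the 2 RTX_UGI (red) and 2 RTX_UGI_MMR (blue) libraries, replicate 1 as solid and replicate 2 as dashed lines, with the gene in grey. Both red lines rise over the same 700 kb, with means of 58.4 and 53.5%, and both blue lines stay near 0.

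After 5FdUR, MMR status was called for 2 members. The share of PCDH8 was 46.9 percentage points higher in MMR proficient cells (58.8% ± 12.5 against 11.9% ± 15.1, SD, n = 2 each; limma, adjusted p = 0.00071), and 82 of the 20033 windows rose further. Among the 1248 windows of its GC content 12 rose further, and their median difference was -12.2 points. The share of PCDH7 was 13.6 percentage points higher in MMR proficient cells (limma, adjusted p = 0.048), and this call was lost when any 1 of 13 libraries was left out (adjusted p = 0.42 without 5FdUR_UGI_MMR replicate 2, which had 28.2%). The background, the share of all windows called higher in MMR proficient cells after 5FdUR, was 15.2%, so that 2 of 10 members is close to it. With only regions of log2 0.33 or more kept, neither gene was called. PCDH8 then had a share of 31.96% in 5FdUR_UGI_MMR replicate 1 and of 0 in the other 3 5FdUR libraries (limma, adjusted p = 0.15). This filter drops whole regions by their log2 value, so a list that was cut lower can lose more to it.

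The cover at PCDH8 lay at the edge of a stretch that was covered under both conditions. Every 100 kb bin from 300 kb upstream to 200 kb downstream of its 5′ end was covered at least 10 percentage points more in both 5FdUR_UGI_MMR libraries than in either 5FdUR_UGI library. Over these 500 kb the mean share was 40.0 and 39.8% in MMR proficient and 1.52 and 11.9% in MMR deficient cells. In the 35 other bins, up to 2 Mb on each side, it was 16.2 and 13.2% against 19.4 and 20.4%. The limits of the 500 kb were set from this same difference. The gap within them therefore follows from the rule, and the reverse order in the other bins is not a test of it.

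**Figure D2:**
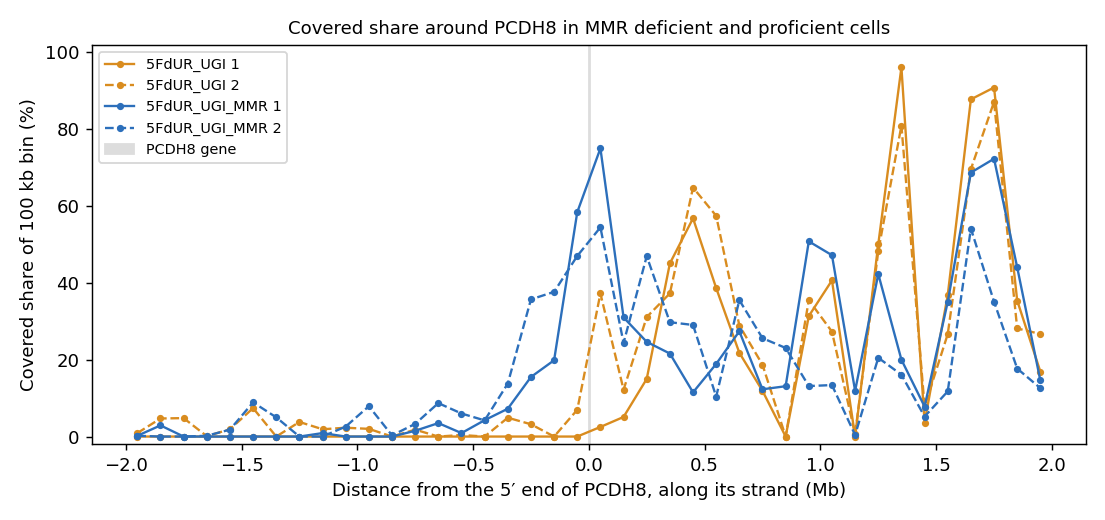
Covered share (%) of 100 kb bins by distance (Mb) from the 5′ end of PCDH8 along its strand in the 2 5FdUR_UGI (orange) and 2 5FdUR_UGI_MMR (blue) libraries, replicate 1 as solid and replicate 2 as dashed lines, with the gene in grey. The blue lines lie above the orange ones over 500 kb around the gene, with means of 40.0 and 39.8% against 1.52 and 11.9%, and further downstream both colours rise.

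The difference with MMR status was itself compared between the drugs, a test added after the data had been seen. It differed for PCDH7 (limma, adjusted p = 0.0035) and PCDH8 (adjusted p = 0.038), against 19.4% of all windows called. For PCDH7 the share fell with MMR after RTX and was higher with MMR after 5FdUR, while for PCDH8 it was 1.39 percentage points higher after RTX and 46.9 points higher after 5FdUR. The call for PCDH8 was lost when any of 13 libraries was left out and that for PCDH7 only at the common log2 threshold (adjusted p = 0.057).

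Between the drugs, 7 members were called, SLITRK1, SLITRK3, SLITRK6, PCDH8, PCDH9, PCDH10 and PCDH18, and all 7 had higher shares after 5FdUR. Over all windows 84.5% differed between the drugs and 30.2% were higher after 5FdUR. The size of the difference was small in all but PCDH8, from 3.67 percentage points in SLITRK6 to 9.51 points in PCDH10, against 34.6 points in PCDH8 (limma, adjusted p = 1.0e-05). Without PCDH7 and PCDH8, 26 of the 32 pairs of a gene and an RTX library had a share of 0, against 6 of 32 pairs after 5FdUR. These pairs share libraries, and no share over all windows stands beside these counts. The lists were cut lower in 3 of the 4 5FdUR libraries than in any RTX library. When only regions with a log2 value of 0.33 or more were kept, none of these 7 members was called. PCDH7 alone was then called, with the higher share after RTX. The shares after 5FdUR of the 8 members other than PCDH7 and PCDH8 were then at most 3.20%. This filter keeps or drops whole regions by their log2 value and does not cut all lists at the same height. More can be dropped from lists that were cut lower. In the exact permutation test of 4 against 4 libraries no member was called (adjusted p = 0.093 for PCDH8). The few possible splits of these libraries set a floor to the p-values of this test, so little is read from the lack of calls.

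Without drug no member was called for UGI or for MMR status. Between NT_UGI and WT the mean shares differed by -7.17 percentage points in PCDH7 to 2.37 points in PCDH10, and between NT_UGI_MMR and NT_UGI by -4.03 points in PCDH18 to 3.58 points in PCDH9. Of the 10 members 0 had an unadjusted p under 0.05 in either comparison. Of all windows 0% were called with UGI and 0% with MMR status without drug (limma), where 37 and 64 windows had an unadjusted p under 0.05. With 2 libraries each, this does not show that the shares were the same.

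Cover was not even along the windows. In the non-treated libraries it broke off at the 5′ end of the genes, as measured in 5 kb bins, which is also the length over which the authors smoothed the coverage. In the first 5 kb of the gene no non-treated library had a region in SLITRK1, SLITRK3, PCDH7, PCDH9 or PCDH10 (nor in PCDH8), while the rest of the stretch from 30 kb upstream to 30 kb downstream was covered by a mean of 60.4% ± 8.36 in SLITRK1 and 61.5% ± 4.89 in PCDH10 (SD, n = 6). The first 5 kb were covered by at most 8.60% in SLITRK5, 12.1% in PCDH18 and 18.9% in PCDH17. In 8 of the 10 genes the first 5 kb lay below the surrounding stretch in each of the 6 non-treated libraries, the others being SLITRK6 and PCDH8.

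SLITRK6 was covered through its start in non-treated HCT116 cells. Its first 5 kb in GENCODE had a mean share of 92.1% ± 13.2 (SD, n = 6) without drug, against 63.7% ± 14.7 around it. With drug this stretch had at most 1.66%, and in K562 it had 32.3%, against 60.7% around it. Among all 926 protein-coding gene windows with a GC content under 37%, the median share without drug was 13.3% in the first 5 kb and 27.5% around it. By the mean over the 6 libraries the first 5 kb lay lower in 68.9% of them, so a drop at the start is shared by many genes in AT-rich DNA. This rule is looser than that for the members, which asked for a lower share in each library. By the looser rule PCDH8 (0 against 1.24%) would count as well.

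**Figure D3:**
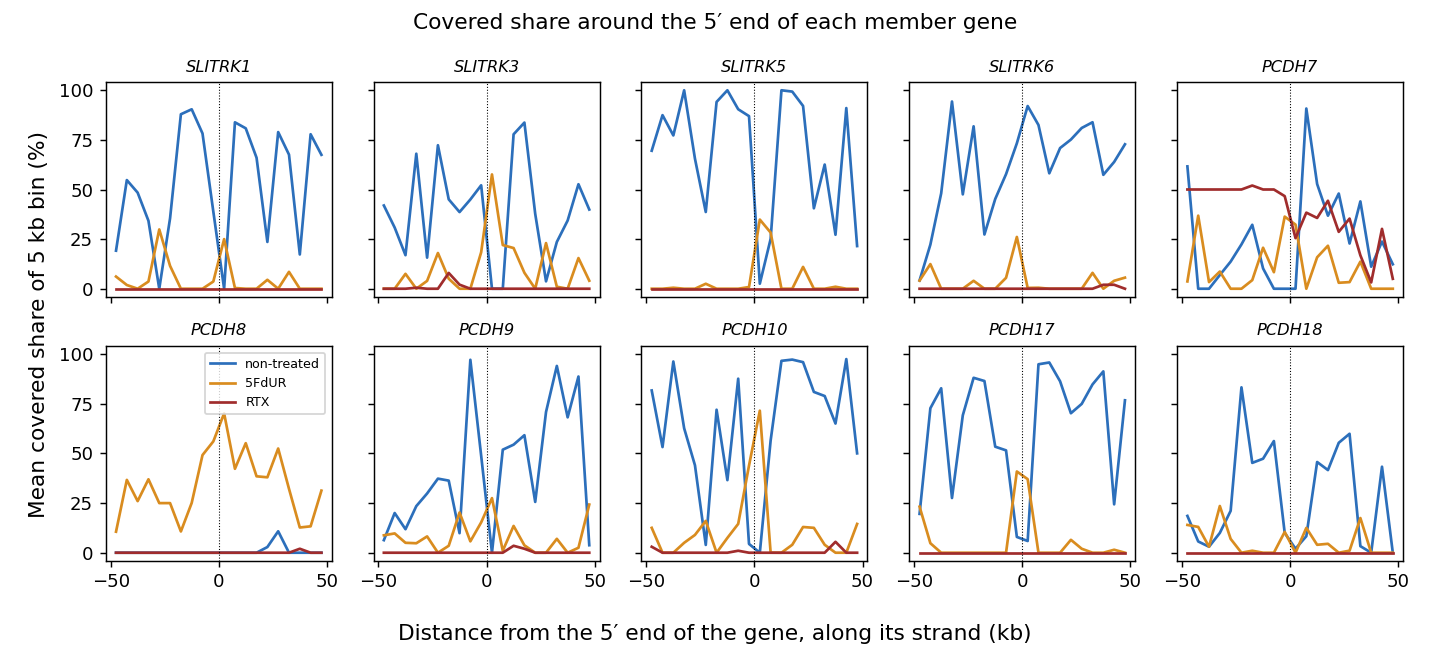
Mean covered share (%) of 5 kb bins by distance (kb) from the 5′ end of each member gene along its strand, for the 6 non-treated (blue), 4 5FdUR (orange) and 4 RTX (red) libraries. The blue line drops to or near 0 just after the 5′ end of 8 genes, SLITRK6 keeps a mean of 92.1% there, PCDH8 has hardly any cover without drug, and the orange line has a peak at the start of several genes.

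The RefSeq start sites were examined as well, 13 entries for 9 of the genes (PCDH10 was not matched). The entry of SLITRK6, with 38.7% GC and 4 CpG, was fully inside regions in 6 of 6 non-treated libraries and in K562, and in none of the 8 drug-treated libraries. It lies at 85799370 to 85799669, outside the first 5 kb of the GENCODE gene, whose 5′ end is at 85806683. The 12 other entries had 7 to 36 CpG, and 11 of these had no region in any non-treated library or in K562. The remaining one, the first of 3 entries of SLITRK5, with 18 CpG, touched a region in 3 of 6 non-treated libraries. The letters CG occurred 10 times or more in 70.5% of 21613 promoters of protein-coding genes. Among promoters in windows with a GC content under 37%, a region was found in at least 1 non-treated library for 60.3% of 547 promoters with fewer than 10 CpG and for 7.63% of 485 promoters with 10 or more. A region in all 6 of these libraries was found for 9.32 and 0.62% of them.

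After 5FdUR a region lay over 11 of the 13 entries in at least 1 of the 4 5FdUR libraries, SLITRK6 and PCDH18 being the exceptions, and over 1 entry, that of PCDH7, in an RTX library. Of all 21613 promoters of protein-coding genes 60% had a region in at least 1 5FdUR library, and of those with 10 or more CpG in windows with a GC content under 37% it was 57.7%. A region in at least 1 RTX library was found for 50.5% of the former and 5.98% of the latter. The members' count after 5FdUR rests largely on 5FdUR_UGI replicate 2, which had a region over 11 entries, while replicate 1 of the same condition had none. The lowest log2 value of these libraries was 0.14 and 0.25. In 5FdUR_UGI_MMR 3 and 6 entries were covered, and without 5FdUR_UGI replicate 2 the count was 6 of 13, against 54.4% of all promoters and 38.8% of those with 10 or more CpG in AT-rich windows. The log2 values of the regions over the entries were low, 0.338 at SLITRK1 and 0.325 at SLITRK5, and 4 of 13 entries had a region of log2 0.33 or more in any 5FdUR library. In SLITRK1 the region of 5FdUR_UGI replicate 2 ran from 83877401 to 83883200 on chromosome 13, which spans nearly the whole gene from 83877205 to 83882474.

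The bases inside regions were only partly the same from library to library. In SLITRK5, 24.3% of the window lay in regions of all 6 non-treated libraries and 85.5% in those of at least 1, and in PCDH10 the values were 23.9 and 79.4%. For PCDH18 they were 2.48 and 57.3%.

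The other SLITRK and non-clustered protocadherin genes did not share 1 pattern. Of these 8 genes, 3 (PCDH20, SLITRK2 and PCDH11X) were lower in every drug-treated library, 2 (PCDH1 and PCDH12) were higher in every one, and SLITRK4, PCDH11Y and PCDH19 did neither. Of all protein-coding gene windows 5.85% were lower and 36.9% higher in this way. PCDH20 (34.7% GC) was covered like the members, by a mean of 45.4% without drug and 2.78% with drug. PCDH1 and PCDH12, neighbours on chromosome 5 beside the protocadherin clusters whose windows overlap, had 49.6 and 46.6% GC, and their means went from 0 and 0.26% without drug to 71.1 and 66.0% with drug. The median difference of the 8 genes was -1.92 percentage points. SLITRK2, SLITRK4, PCDH11X and PCDH19 lie on chromosome X and PCDH11Y on chromosome Y. Without drug PCDH11X had a mean share of 9.71% and PCDH11Y of 0. Windows of like GC content had medians of 28.3 and 29.7%. What part the sex chromosomes have in this was not tested.

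Partners and relatives at the synapse were compared as well. Of the LAR family phosphatases, which bind SLITRK proteins, PTPRD fell from a mean of 32.8% to 0.28% and was lower in every drug-treated library, PTPRS was higher in every one, and PTPRF, with 0.36% without and 40.9% with drug, overlapped. Of 7 leucine-rich repeat genes of the synapse, LRRTM3, LRRTM4, FLRT2 and FLRT3 were lower in every drug-treated library, and LRRTM1, LRRTM2 and FLRT1 were neither lower nor higher throughout. Among all windows 5.85% were lower and 36.9% higher in every drug-treated library. The medians of the drug-treated minus non-treated difference were 22.5 and -7.90 percentage points for these 2 lists, against 30.4 over all windows. For MMR status after 5FdUR, 1 of the 8 other family members was called higher and 2 lower in MMR proficient cells, 2 of the 3 phosphatases were called lower, and 2 of the 7 leucine-rich repeat genes higher, where 15.2% of all windows were called higher and 46.2% lower (limma). After RTX none of the other family members and phosphatases was called, and of the leucine-rich repeat genes 1 was called higher and 1 lower, against 4.21 and 14.1% of all windows.

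Among the 5 windows most like the mean profile of the 10 members over the 15 libraries, by the root mean square difference of the covered share, were those of SPOCK3 (2.99 percentage points), CCSER1 (3.05) and HNF4G (3.19). These windows had 34.9 to 36.1% GC.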

How the data were processed

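Enriched (U-DNA) libraries of 14 HCT116 samples and 1 K562 sample were analysed as region lists, with 7 lists of merged replicates as an alternative. Reads had been mapped by the authors on GRCh38 using BWA (0.7.17-r1194) and SAMtools (1.9-50), marked duplicates with Picard, removed ambiguously mapped and blacklisted reads, and calculated smoothed, genome-scaled coverage in 100 bp bins with deepTools (3.2.1, versions per the submitters' processing notes). The deposited lists hold stretches above a threshold that the authors set for each library, with a log2 value of enriched over input coverage. The files carry no header, and each log2 value was taken as an average over its region. Because total length is set by the threshold, the covered share is relative within a library. Depth is not in the lists.

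Gene bodies of GENCODE release 44 with 100 kb flanks were intersected with regions of chromosomes 1 to 22, X and Y. Shares were divided by the known bases of the window (at least 50% known). The fit used limma (3.58.1, R 4.3.3: group means of 7 conditions, eBayes with trend) over windows with any region base, and was tested on simulated data. Python 3.11.15, NumPy 2.4.6, pandas 2.3.3, SciPy 1.17.1 and matplotlib 3.10.9 were used. Promoter sequences came from RefSeq (GRCh38.p14). The 5 kb and 100 kb profiles, the promoter counts and their alternatives were chosen after seeing the data. The members and gene lists were chosen with earlier results of these data known. All members and list genes are named, and windows among the 5 most alike by the smallest root mean square difference, of which some are not reported here. Alternatives were the window, region length, the lowest log2 value of a region kept, total length, pooling, scale, filter, gene set, replicate block, an exact test and leaving out each library. Input, mock and peak files were not used here.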

Additional observations from a re-analysis of the deposited data

Results flagged for a closer look

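In 40 groups of 4 to 8 libraries, 4 for each member, 9 values stood apart from the others of their group by the gap to the nearest value relative to the range (Dixon's criterion), where chance marks about 1 in 20 groups of independent values that vary freely. That rate does not hold here, because any value above 0 is marked when the others are 0, as among the RTX libraries at SLITRK3, SLITRK6 and PCDH9, and because the drug-treated groups contain the 5FdUR and RTX groups. Among the RTX libraries, RTX_UGI_MMR replicate 1 stood apart at SLITRK3 (1.38%), SLITRK6 (0.37%), PCDH8 (2.48%) and PCDH9 (0.69%), in each case a small share beside values of 0 or near 0. The share of PCDH7 in 5FdUR_UGI_MMR replicate 2 (28.2%) stood apart among the 5FdUR libraries. The same library stood apart among the drug-treated libraries at PCDH10 (23.6%) and PCDH18 (11.5%), and 5FdUR_UGI replicate 2 did at SLITRK1 (11.4%). PCDH8 had 1.75% in NT_UGI_MMR replicate 2, where the other non-treated libraries had 0.24% or less.

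The difference between MMR proficient and deficient cells was not the same after RTX and after 5FdUR at PCDH7 (limma, adjusted p = 0.0035) and at PCDH8 (limma, adjusted p = 0.038), as tested by the difference of both differences. What these patterns come from was not tested.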

How the results depend on the processing

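The call of PCDH7 for MMR status after RTX was kept under each of the 25 alternatives and left-out libraries listed for it (adjusted p from 0.00017 to 0.019). No member was called for MMR status or UGI without drug under any of 25 settings each. The count of members lower in every drug-treated library was 8 without any 1 library and 5 over gene bodies alone (SLITRK5, SLITRK6, PCDH9, PCDH10 and PCDH17), where the mean differences of SLITRK1 and SLITRK3 turned to 12.04 and 19.8 percentage points. The median member difference of -42.3 percentage points became -27.7 over gene bodies, -29.4 with regions of at least 5 kb, -58.1 with shares divided by the genome share (on the scale of the mean genome share) and -48.3 in the merged lists, and ranged from -43.8 to -41.0 without 1 library.

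The 7 members called between the drugs were 4 over gene bodies, 2 with regions of at least 5 kb, 1 at log2 0.33, 3 with at most 300 Mb, 2 untransformed and 0 by the exact test, and 4 to 9 without 1 library. They were 4 without 5FdUR_UGI replicate 2, 5FdUR_UGI_MMR replicate 2, RTX_UGI replicate 1 or RTX_UGI replicate 2. The 2 members called for MMR status after 5FdUR were 1 with regions of at least 5 kb, with at most 300 Mb, over all annotated genes, untransformed or with the replicate block, 0 at log2 0.33, and 1 to 7 without 1 library, with 7 without 5FdUR_UGI replicate 2 and 4 without 5FdUR_UGI_MMR replicate 1. PCDH7 lost this call in 18 settings and turned to -0.14 on the arcsine scale at log2 0.33. The 2 members of the test added after seeing the data were 1 over gene bodies, 0 at log2 0.33, 1 with relative shares and 1 to 3 without 1 library.

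The labels name no batch that the replicate numbers share. Deviations of same-numbered libraries correlated by 0.36 (5FdUR) and 0.40 (RTX) within a drug, by -0.52 to -0.31 between the drugs, and by -0.010 to 0.0039 among the non-treated conditions, so the numbers were not used as pairs, and whether the drug-treated libraries share batches in another order was not tested. With the replicate block 7, 1 and 1 members were called between the drugs, for MMR status after 5FdUR and after RTX, and 7, 2 and 1 with the RTX numbers crossed, added after seeing the data. The median member difference within replicate numbers was -42.3 points. The cause of these changes was not tested. Depth and counting error cannot be judged from region lists.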
